A study of Mus musculus with 8 samples.

Results

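The NRF2 antioxidant genes described here are 10 genes chosen by name: Nfe2l2, Keap1, Hmox1, Nqo1, Gclc, Gclm, Txnrd1, Srxn1, Osgin1 and G6pdx. All 10 were present among the 21692 genes of the deposited table, each as 1 row. The RNA came from forelimb buds of CD1 mouse embryos at gestation day 13, kept in culture for 24 h. One group of 4 libraries received the solvent vehicle dimethyl sulfoxide. The other group of 4 received organophosphate esters (OPE), compounds used to retard flames and soften plastics, as a mixture diluted 1 in 300000. The mixture was based on Canadian house dust, and the series asks how it affects the turning of limb cartilage into bone. The libraries are called vehicle 1 to 4 and OPE 1 to 4 after the numbers in their titles. Nothing in the labels ties the 4 libraries of a group to different litters or dishes. The p-values therefore cover only the spread among these libraries, and part of it may be technical.

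NRF2, the product of Nfe2l2, is a transcription factor that cells use against oxidants and electrophiles. In unstressed cells the adaptor KEAP1 binds it and passes it to a CUL3 ubiquitin ligase for destruction. Oxidised KEAP1 lets NRF2 accumulate, pair with a small MAF protein and bind antioxidant response elements near its target genes. These targets supply glutathione and NADPH, reduce thioredoxin and peroxiredoxins, and break down quinones and haem. Because the control acts on the protein, the transcript of Nfe2l2 itself is not a readout of NRF2 activity, and the target transcripts are the usual one.

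The antioxidant response element is what the targets share, so its core letters were looked for in the 250 bases before each RefSeq start. RefSeq promoters (GRCm38.p6, the patched form of mm10) were held for 8 of the 10 genes, with 10 starts; Hmox1 and Gclc had no entry. The core TGACNNNGC, read on both strands, occurred at 4 of the 10 starts, those of Nfe2l2, Gclm, G6pdx and 1 of the Txnrd1 starts, and at 10.2% of all 32851 starts. The related core TGAGNNNGC occurred at 2 of the 10 starts, those of Srxn1 and Osgin1, and at 14.4% of all starts. The matches of G6pdx and Osgin1 precede RefSeq starts that fall inside the deposited coordinates of these genes, so they lie within the genes as counted. Both searches count overlapping matches, and no match says only that these letters are not in the window searched. The matches are given on the strand of the gene, 5′ to 3′, with the 9 letters of the core in capitals; GC at the left end of the capitals means that the core reads on the other strand.

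Nfe2l2, 240 bases before the start, minus strand (chr2:75704875-75704913): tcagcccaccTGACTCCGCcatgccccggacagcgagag

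Gclm, 134 bases before the start, plus strand (chr3:122245403-122245451): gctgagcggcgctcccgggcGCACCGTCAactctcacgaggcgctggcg

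Txnrd1, 92 bases before the start, plus strand (chr10:82859094-82859142): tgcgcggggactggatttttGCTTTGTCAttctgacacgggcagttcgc

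G6pdx, 57 bases before the start, minus strand (chrX:74428909-74428957): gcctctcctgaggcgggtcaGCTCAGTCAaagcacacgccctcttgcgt

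Srxn1, 45 bases before the start, plus strand (chr2:152105459-152105507): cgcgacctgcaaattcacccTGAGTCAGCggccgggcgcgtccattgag

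Osgin1, 99 bases before the start, plus strand (chr8:119437028-119437076): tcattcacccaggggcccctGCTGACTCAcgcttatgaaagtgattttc

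Srxn1 held a second match of the related core, 158 bases before its start: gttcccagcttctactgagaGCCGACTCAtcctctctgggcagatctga. Of the 6 genes with a match, the log2 fold change between OPE and vehicle was above 0 for Nfe2l2 and Gclm and below 0 for the others, and none of these differences passed the test.

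Between 14986793 and 22006738 reads were counted per library. OPE 3 stood apart from the other libraries. It had a gene-length trend, with genes of 1500 bases higher by 0.27 and genes of 5000 bases lower by 0.21 on the log2 scale than their mean over the libraries, against -0.12 to 0.06 and -0.03 to 0.12 in the other 7. Ribosomal protein genes took 9.04% of its reads and 4.54% to 5.82% in the others. Markers of limb mesenchyme and cartilage summed to between 8375 and 9734 CPM (reads scaled to library size by the TMM method) in all 8 libraries, with all 11 genes tested, so the labelled tissue was matched by its markers in every library.

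No NRF2 gene passed the test between the groups. The deposited read counts were compared with the quasi-likelihood test of edgeR over 15517 genes, with adjustment by Benjamini and Hochberg at 0.05. All 10 genes passed the filter on low counts, and 0 passed the threshold in either direction, against 0.477% of all genes tested. These were 74 genes, 6 of them higher with OPE (0.0387%) and 68 lower (0.438%). The adjusted p of the 10 NRF2 genes lay between 0.31 and 0.963. At an unadjusted p under 0.05 there were 2 genes, Hmox1 and Osgin1, against 13.2% of all genes tested, and DESeq2 and both limma-voom fits also called 0 of the 10. The log2 fold change was above 0 for 3 genes and below 0 for 7, with a median of -0.06; it was 0.01 over all genes tested. The median size of the change, whatever its sign, was 0.15 for these genes and 0.14 for all genes tested.

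The width of the 95% intervals says how large a change these libraries could still hold. For 8 of the 10 genes the interval lay within 1.5-fold in either direction. For Nqo1 it reached from 0.594 to 1.10 times the vehicle level, and for Osgin1 from 0.41 to 0.956 times. Osgin1 was thus the 1 gene of the 10 whose interval reached past 2-fold.

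**Figure D1:**
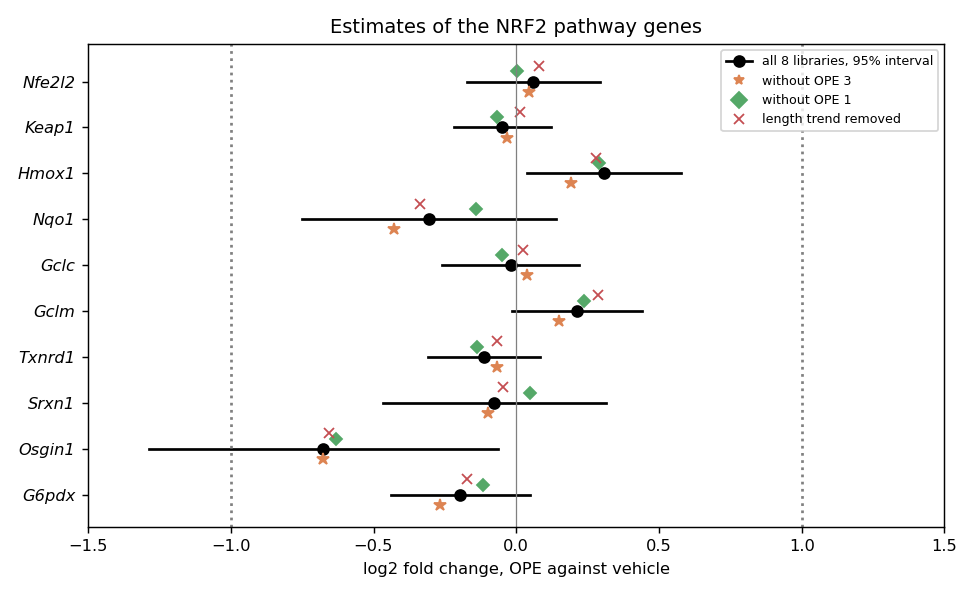
Log2 fold change (x axis) of the 10 NRF2 genes, OPE against vehicle, from all 8 libraries (black points, bars are 95% intervals) and from 3 alternatives (coloured marks); dotted lines mark 2-fold. The Osgin1 interval alone crosses a dotted line, and leaving out OPE 3 moves Hmox1 from 0.31 to 0.19.

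The regulators came first in the order of roles. Nfe2l2 (ENSMUSG00000015839, chr2:75675513-75704641, minus strand, mm10) read 49.3, 42.4, 39.5 and 39.8 CPM in vehicle 1 to 4 and 49.0, 43.2, 46.2 and 39.6 CPM in OPE 1 to 4. The groups overlapped over nearly their whole range, with vehicle 1 and OPE 1 the highest of each group. Its log2 fold change was 0.06 ± 0.11 (SE; edgeR adjusted p = 0.876). Keap1, the repressor (ENSMUSG00000003308, chr9:21229730-21239332, minus strand), read 58.2, 54.4, 54.4 and 55.5 CPM with vehicle and 55.1, 53.7, 52.0 and 54.3 CPM with OPE. It was the steadiest of the 10 genes, with a standard deviation of 3.28% of the mean in the vehicle group and 2.46% in the OPE group. Its log2 fold change was -0.05 ± 0.08 (edgeR adjusted p = 0.856), and OPE 1 lay inside the vehicle range while OPE 2, 3 and 4 lay just below it. In deposited FPKM, which divides the count by gene length and library total, Nfe2l2 stood at 1.53, 1.41, 1.31 and 1.29 times Keap1 with vehicle and at 1.61, 1.45, 1.61 and 1.32 times with OPE, so the ranges overlapped.

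Hmox1 was the member with the highest log2 fold change. It encodes haem oxygenase 1, which opens the haem ring and frees iron, and it is also induced by haem itself through loss of the repressor BACH1. Hmox1 (ENSMUSG00000005413, chr8:75093591-75100596, plus strand) read 46.9, 53.4, 53.5 and 53.8 CPM with vehicle and 65.6, 58.8, 79.4 and 53.3 CPM with OPE. OPE 1, 2 and 3 lay above all 4 vehicle libraries, OPE 4 lay inside the vehicle range, and OPE 3 was the highest. The mean was 51.9 ± 3.34 CPM with vehicle and 64.3 ± 11.3 CPM with OPE (SD, n = 4 each). The log2 fold change was 0.31 ± 0.12 (edgeR adjusted p = 0.31), between 0.11 and 0.38 over all 21 alternative fits, with adjusted p of 0.097 to 0.783.

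OPE 3 weighed on this estimate. Without it the log2 fold change of Hmox1 was 0.19 (adjusted p = 0.285), and without both OPE 1 and OPE 3 it was 0.11 (adjusted p = 0.783). Hmox1 has a gene length of 1606 bases, in the range where OPE 3 was raised; with each library's gene-length trend removed the value was 0.28 (adjusted p = 0.097). Erythroid markers, 11 of whose 12 genes were in the table, summed to 2627 CPM in OPE 3, to 1122 to 1378 CPM in the other OPE libraries and to 994.1 to 1470 CPM with vehicle. These markers are short, with a median gene length of 778 bases. The median log2 fold change of the 7 tested was 0.14, and -0.03 with the length trend removed. Macrophage markers summed to 34.1 to 95.2 CPM with OPE and 181.6 to 222.0 CPM with vehicle, with 14 of 15 genes in the table and none at 0 in all libraries; their share in the level of Hmox1 was not tested.

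The glutathione pair followed. Gclc and Gclm encode the catalytic and the modifier subunit of glutamate-cysteine ligase, the rate-limiting enzyme of glutathione synthesis. Gclc (ENSMUSG00000032350, chr9:77754535-77794485, plus strand) read 22.3, 23.9, 25.9 and 24.6 CPM with vehicle and 24.9, 22.7, 20.9 and 26.8 CPM with OPE. OPE 3 was below and OPE 4 above the whole vehicle range, and the log2 fold change was -0.02 ± 0.11 (edgeR adjusted p = 0.963). Gclm (ENSMUSG00000028124, chr3:122245557-122269984, plus strand) read 24.8, 25.3, 28.9 and 28.2 CPM with vehicle and 28.9, 30.2, 35.1 and 30.1 CPM with OPE.

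The groups did not overlap for 2 of the 10 genes, Gclm and Osgin1, against 9.49% of all genes tested. Gclm was the 1 member whose OPE values were all above the vehicle values, as were those of 4.05% of all genes tested. The separation was narrow, 28.94 CPM in OPE 1 against 28.90 CPM in vehicle 3, and in deposited FPKM the groups overlapped. Its log2 fold change was 0.21 ± 0.10 (edgeR adjusted p = 0.411), and 0.15 without OPE 3. The FPKM of Gclc divided by that of Gclm was 1.27, 1.33, 1.27 and 1.24 with vehicle and 1.22, 1.06, 0.84 and 1.26 with OPE. The ratio was thus nearly constant among the vehicle libraries and was lowest in OPE 3, where the longer gene, Gclm with 4841 bases against 3423, was the higher of the pair.

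**Figure D2:**
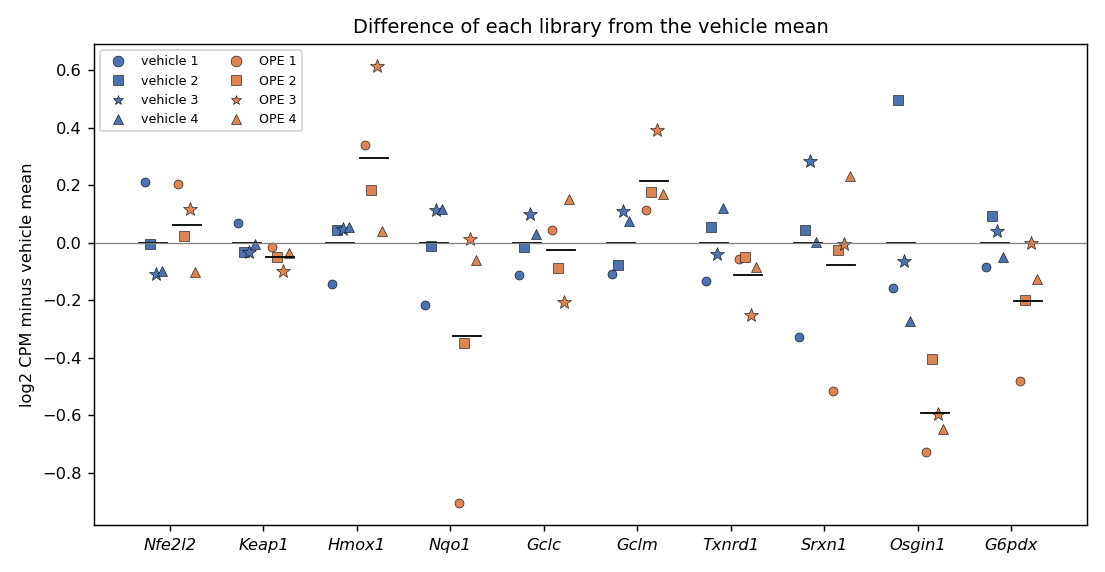
Log2 CPM of each of the 10 NRF2 genes minus its vehicle mean (y axis), for 4 vehicle (blue) and 4 OPE (orange) libraries, with the library number as the symbol and group means as bars. OPE 3 (star) is the highest OPE library for Hmox1 (0.61) and Gclm (0.39), and OPE 1 (circle) is the lowest for Nqo1 (-0.91), Srxn1 (-0.52) and G6pdx (-0.48).

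The thioredoxin branch reduces protein disulfides and peroxiredoxins. Txnrd1, cytosolic thioredoxin reductase (ENSMUSG00000020250, chr10:82859206-82897724, plus strand), read 85.0, 96.9, 90.8 and 101.3 CPM with vehicle and 89.6, 90.1, 78.4 and 87.9 CPM with OPE. OPE 3 alone lay below the vehicle range, and the log2 fold change was -0.11 ± 0.09 (edgeR adjusted p = 0.658). Srxn1, sulfiredoxin, which repairs over-oxidised peroxiredoxins (ENSMUSG00000032802, chr2:152105516-152111376, plus strand), read 11.5, 14.9, 17.7 and 14.5 CPM with vehicle and 10.1, 14.2, 14.4 and 17.1 CPM with OPE. The library numbered 1 was the lowest of each group. The log2 fold change of Srxn1 was -0.08 ± 0.18 (edgeR adjusted p = 0.91), and its sign turned to 0.05 without OPE 1.

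Nqo1 and G6pdx belong to the quinone and NADPH branch. Nqo1 encodes the reductase that turns quinones into hydroquinones with NAD(P)H and is a standard marker of NRF2 activity. Nqo1 (ENSMUSG00000003849, chr8:107388225-107403206, minus strand) read 6.32, 7.29, 7.96 and 7.99 CPM with vehicle and 3.88, 5.76, 7.42 and 7.06 CPM with OPE. OPE 1 and 2 lay below all vehicle libraries, and OPE 3 and 4 lay inside their range. For Nqo1 the log2 fold change was -0.31 ± 0.20 (edgeR adjusted p = 0.575), -0.14 without OPE 1 and -0.43 without OPE 3.

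Hmox1 and Nqo1, both targets, thus gave estimates of opposite sign. The FPKM of Hmox1 was 6.50 to 7.17 times that of Nqo1 in the vehicle libraries and 16.4, 9.88, 10.3 and 7.30 times in OPE 1 to 4, so that all 4 OPE ratios were above the vehicle ratios. This ratio was formed after the values had been seen and was not tested. The gene lengths are 1606 and 1553 bases.

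G6pdx encodes glucose-6-phosphate dehydrogenase, the first enzyme of the pentose phosphate pathway and a main source of NADPH. G6pdx (ENSMUSG00000031400, chrX:74409483-74429194, minus strand) read 40.1, 45.5, 43.8 and 41.1 CPM with vehicle and 30.5, 37.1, 42.5 and 39.0 CPM with OPE. OPE 1, 2 and 4 lay below the vehicle range and OPE 3 inside it, and OPE 1 was the lowest. For G6pdx the log2 fold change was -0.20 ± 0.11 (edgeR adjusted p = 0.498), and -0.12 without OPE 1. In deposited FPKM all 4 OPE values were below the vehicle values for 3 members, G6pdx, Keap1 and Osgin1, and for 7.31% of all genes tested; they were all above for 0 members and for 2.66% of all genes tested.

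The count of G6pdx carries an uncertainty of its own. The gene lies wholly inside Ikbkg on the opposite strand, and the sources used here do not say whether counting used the strand. Ikbkg held 4713 reads over the 8 libraries against 5887 for G6pdx, with a log2 fold change of -0.16 ± 0.09 (edgeR adjusted p = 0.492). Keap1 and Gclm overlap predicted genes on the other strand that held 2.81% and 1.56% of their reads, and the other 7 members overlapped no other gene of the table.

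Osgin1, an oxidative stress induced growth inhibitor, was the least abundant member and had the lowest log2 fold change. Osgin1 (ENSMUSG00000074063, chr8:119434124-119446256, plus strand) read 1.35, 2.19, 1.45 and 1.24 CPM with vehicle and 0.877, 1.12, 0.971 and 0.933 CPM with OPE, from 24, 43, 31 and 28 reads and from 19, 17, 14 and 14 reads. All 4 OPE values were below all 4 vehicle values, as in 5.44% of all genes tested. For Osgin1 the log2 fold change was -0.68 ± 0.28 (edgeR adjusted p = 0.327). Vehicle 2 was the highest library, and without it the value was -0.47 (adjusted p = 0.616). Leaving out OPE 3 left it at -0.68.

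Levels between these genes can be compared only per length. By mean FPKM over the vehicle libraries the order was Hmox1 (32.9), Txnrd1 (27.8), Nfe2l2 (17.6), G6pdx (16.4), Keap1 (12.7), Gclc (7.18), Gclm (5.63), Srxn1 (5.30), Nqo1 (4.84) and Osgin1 (0.69). Over the 8 libraries the ranges of neighbours were apart at 3 steps, Txnrd1 above Nfe2l2, Keap1 above Gclc, and Nqo1 above Osgin1. The other neighbours overlapped, although Hmox1 was above Txnrd1 in 8 of 8 libraries and Nfe2l2 above G6pdx in 6 of 8. Hmox1 had a mean FPKM above that of 87.0% of all genes tested and Osgin1 above that of 8.86%.

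**Figure D3:**
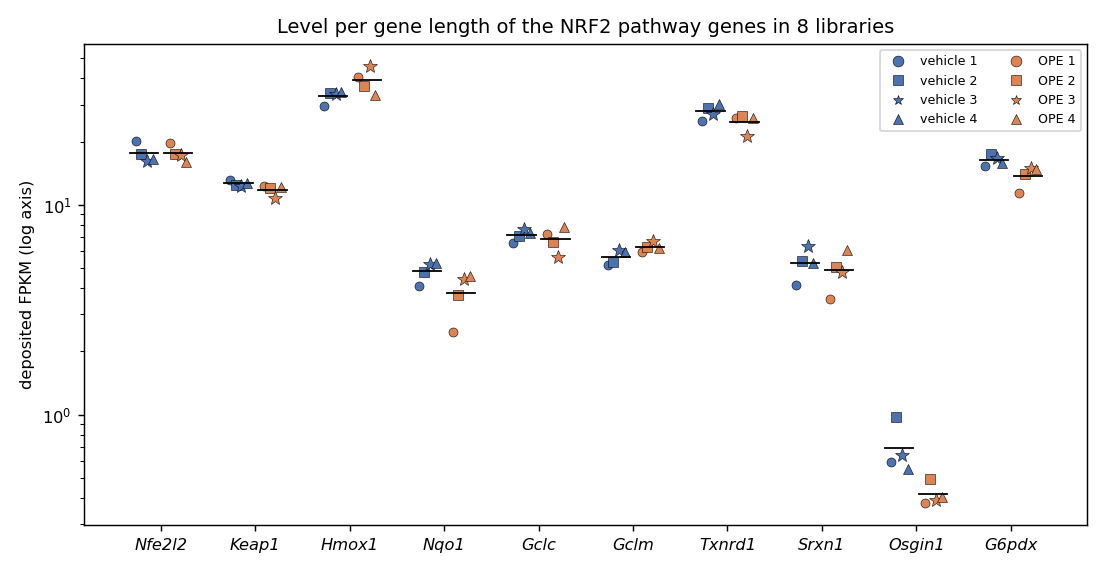
Deposited FPKM (y axis, log scale) of the 10 NRF2 genes in the 4 vehicle (blue) and 4 OPE (orange) libraries, with group means as bars. Hmox1 and Txnrd1 are the most abundant per length and Osgin1, between 0.379 and 0.972, the least.

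OPE 1 and OPE 3 gave 14 of the 20 highest and lowest OPE values of the 10 genes, and OPE 2 and OPE 4 gave 6. OPE 1 was the lowest OPE library for 5 members (Nqo1, Gclm, Srxn1, Osgin1 and G6pdx) and the highest for Nfe2l2 and Keap1. OPE 3 was the highest for 4 (Hmox1, Nqo1, Gclm and G6pdx) and the lowest for Keap1, Gclc and Txnrd1. The median of the 10 genes relative to the vehicle mean was nevertheless -0.04, -0.05, 0.00 and -0.05 in OPE 1 to 4, inside the range of -0.12 to 0.04 in the vehicle libraries. Within the vehicle group, vehicle 1 was the lowest library for 7 of the 10 genes. The median size of deviation from the vehicle mean was 0.27, 0.13, 0.16 and 0.11 for these genes in OPE 1 to 4, against 0.21, 0.15, 0.33 and 0.14 for all genes tested. The NRF2 genes thus deviated more than the median gene in OPE 1 and less in OPE 2, 3 and 4.

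Beyond the 10 members, 98 genes of 7 antioxidant groups were looked up, of which 97 were in the table and 94 passed the filter. None of the 94 passed the edgeR threshold in either direction, 13 had an unadjusted p under 0.05 (13.2% of all genes tested did), and DESeq2 called 2 (3.09% of all genes tested). The log2 fold change was above 0 for 58 and below 0 for 36, with a median of 0.05, and above 0 for 52.8% of all genes tested. Without OPE 3 this balance turned, to 37 above and 57 below 0, with a median of -0.05 (50.2% of all genes tested were above 0). With the length trend removed, 13 of 15 regulators, 14 of 21 glutathione and 13 of 14 thioredoxin genes were above 0. So were 6 of 10 NADPH, 7 of 15 quinone and aldehyde, 5 of 10 haem and iron and 2 of 9 superoxide genes. Over all genes it was 9012 of 15517. The groups did not overlap for 3 genes that were higher and 5 that were lower with OPE, against 4.05% and 5.44% of all genes tested.

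Among regulators and partners of NRF2, 0 of 15 passed, with a median of 0.05. The small MAF genes, which encode the DNA-binding partners, had the smallest p: Mafg gave 0.30 ± 0.13, Maff -0.43 ± 0.23 and Mafk 0.22 ± 0.15 (edgeR adjusted p = 0.35, 0.462 and 0.582). Mafg was highest in OPE 1, with 167.4 CPM against 99.4 to 114.5 CPM with vehicle. Without OPE 1 the values of Mafg and Mafk were 0.15 and 0.09, and without vehicle 1 that of Maff was -0.26.

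In the glutathione group 0 of 21 tested genes passed, 17 were above 0 and the median was 0.14. Slc3a2 and Slc7a11 encode the chains of the cystine importer that feeds glutathione synthesis, and both are also targets of the stress factor ATF4. Slc3a2 read 86.4 to 108.8 CPM with vehicle and 360.7, 161.1, 208.2 and 129.2 CPM with OPE, a log2 fold change of 1.13 ± 0.26 (edgeR adjusted p = 0.0906), and it passed in 3 of the 21 alternative fits. Slc7a11 read 7.85 to 8.92 CPM with vehicle and 25.2, 9.53, 12.0 and 10.6 CPM with OPE, a log2 fold change of 0.77 ± 0.28 (edgeR adjusted p = 0.254). In both genes all OPE libraries were above the vehicle libraries and OPE 1 was far above the rest. Without OPE 1 the log2 fold change of Slc3a2 was 0.75 and that of Slc7a11 0.33. Gpx3, a secreted glutathione peroxidase, was lower in all 4 OPE libraries, with -0.56 ± 0.15 (edgeR adjusted p = 0.126).

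The glutathione and thioredoxin groups moved with OPE 3. Their medians were 0.63 and 0.54 in that library while OPE 1, 2 and 4 lay between -0.07 and 0.02. The group medians of the fit were 0.14 and 0.11 with all libraries and -0.02 and -0.06 without OPE 3. Leaving out OPE 3 also lowered the medians of the NADPH (0.04 to -0.06), haem and iron (0.01 to -0.08), quinone and aldehyde (-0.05 to -0.10) and superoxide (-0.07 to -0.19) groups described next, while that of the regulators stayed at 0.05. The glutathione genes are short, with a median gene length of 1182 bases against 3065 for all genes tested and 2732 for the 10 members, and with the length trend removed their median was 0.09.

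In the thioredoxin and peroxiredoxin group 0 of 14 passed. Sesn2, a sestrin that is induced by several stresses, read 33.8 to 37.1 CPM with vehicle and 99.3, 46.7, 45.8 and 45.9 CPM with OPE, a log2 fold change of 0.74 ± 0.23 (edgeR adjusted p = 0.195), and of 0.36 without OPE 1. Txnrd3 and Txn2, a testis-type reductase and mitochondrial thioredoxin, gave 0.22 ± 0.13 and 0.25 ± 0.15 (edgeR adjusted p = 0.492 and 0.532), and 0.14 and 0.06 without OPE 3. Txn2 read 81.3 to 102.9 CPM with vehicle and 94.6, 96.9, 153.8 and 102.0 CPM with OPE, so that OPE 3 alone lay above the vehicle range. Of the 10 NADPH supply genes 0 passed, with a median of 0.04. The pentose phosphate isomerase gene Rpia gave 0.32 ± 0.12, isocitrate dehydrogenase Idh1 0.25 ± 0.11 and H6pd, the dehydrogenase of the endoplasmic reticulum, -0.25 ± 0.15 (edgeR adjusted p = 0.292, 0.349 and 0.529). Without OPE 3 the values of Idh1 and H6pd were 0.14 and -0.10.

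Of 15 quinone and aldehyde detoxification genes 0 passed and 11 were below 0, with a median of -0.05. Aldh9a1, an aldehyde dehydrogenase, was the most precise, with 56.3 to 60.2 CPM in vehicle and 45.8 to 52.6 CPM in OPE libraries and a log2 fold change of -0.27 ± 0.08 (edgeR adjusted p = 0.196). Aox1, aldehyde oxidase, and Ephx1, microsomal epoxide hydrolase, gave -0.86 ± 0.33 and -0.53 ± 0.22 (edgeR adjusted p = 0.289 and 0.339), Aox1 at about 1 CPM (1.18 with vehicle).

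Haem and iron genes frame the result for Hmox1, and 0 of 10 passed, with a median of 0.01. Tfrc, the transferrin receptor that brings iron in, read 118.8, 84.8, 81.3 and 74.0 CPM with vehicle and 65.6, 61.9, 62.3 and 69.5 CPM with OPE, all OPE values below all vehicle values (-0.47 ± 0.14, edgeR adjusted p = 0.166; -0.31 without vehicle 1). Slc40a1, the iron exporter ferroportin, gave -0.27 ± 0.11 (edgeR adjusted p = 0.339). Ftl1, the ferritin light chain, read 2961 CPM in OPE 3 against 1651 to 1832 CPM in the other OPE libraries and 1426 to 1733 CPM with vehicle (0.34 ± 0.18, edgeR adjusted p = 0.471; 0.10 without OPE 3). Of 9 genes for superoxide dismutases, catalase and methionine sulfoxide reductases 0 passed, with a median of -0.07, and the values of smallest p were -0.14 ± 0.09 for Cat, -0.19 ± 0.18 for Msrb2 and -0.15 ± 0.17 for Ccs (edgeR adjusted p = 0.53, 0.741 and 0.775). With 1 library left out Msrb2 lay between -0.32 and -0.12 and Ccs between -0.31 and -0.06.

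**Figure D4:**
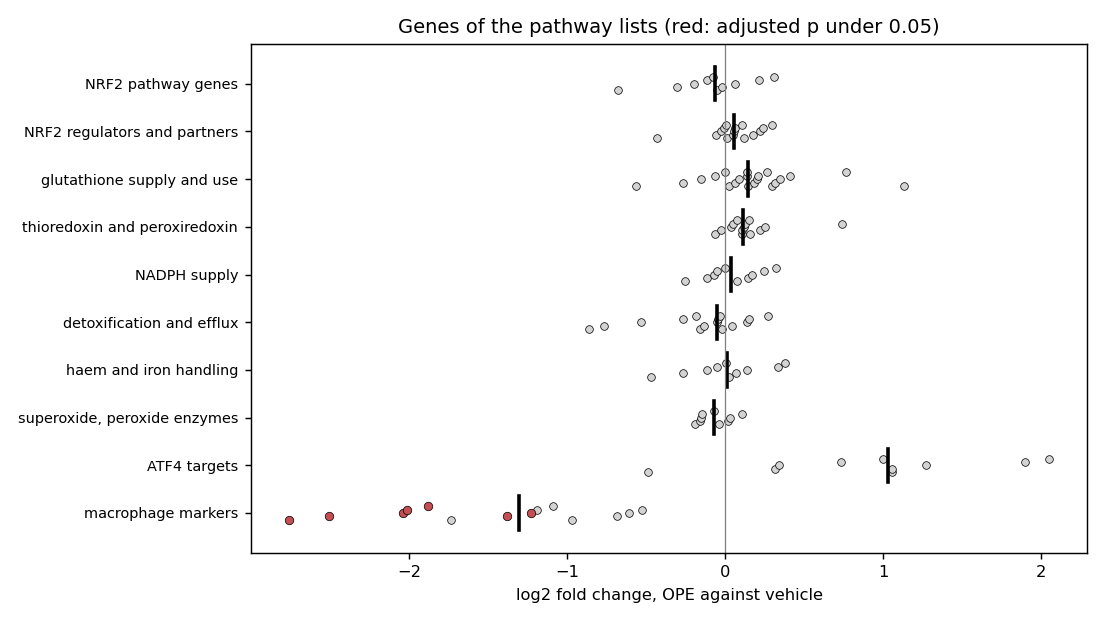
Log2 fold change (x axis) of each tested gene in the 10 NRF2 genes, 7 further antioxidant groups, the ATF4 targets and the macrophage markers; black bars are medians and red points passed an adjusted p of 0.05. The antioxidant medians lie between -0.07 and 0.14 (-0.19 and 0.05 without OPE 3), the ATF4 targets at 1.03 and the macrophage markers at -1.31.

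The ATF4 targets give a scale for these values in the same libraries. Their list, too, was chosen with earlier results of these data known. Of 10 ATF4 target genes, of amino acid and stress metabolism, 0 passed the edgeR threshold (0.477% of all genes tested did). An unadjusted p under 0.05 was found for 8 (13.2% of all genes tested), and DESeq2 called 7 (3.09% of all genes tested). The log2 fold change of the 10 ATF4 targets was above 0 for 9, with a median of 1.03. Their median relative to the vehicle mean was 1.63, 0.62, 1.03 and 0.42 in OPE 1 to 4. The ATF4 target Asns, asparagine synthetase, gave 1.05 ± 0.20 (edgeR adjusted p = 0.0504), Mthfd2 1.00 ± 0.20 (0.0522) and Phgdh 0.73 ± 0.15 (0.0552). The 4 OPE medians of the NRF2 genes lay within 0.05 of 0 in the same libraries. These medians cover members on both sides of 0, with log2 fold changes from -0.68 (Osgin1) to 0.31 (Hmox1). OPE 1 was the highest library for Slc3a2, Slc7a11 and Sesn2, as it was for the ATF4 median, while the ATF4 target Phgdh was highest in OPE 3 (219.4 CPM, against 192.1 CPM in OPE 1).

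**Figure D5:**
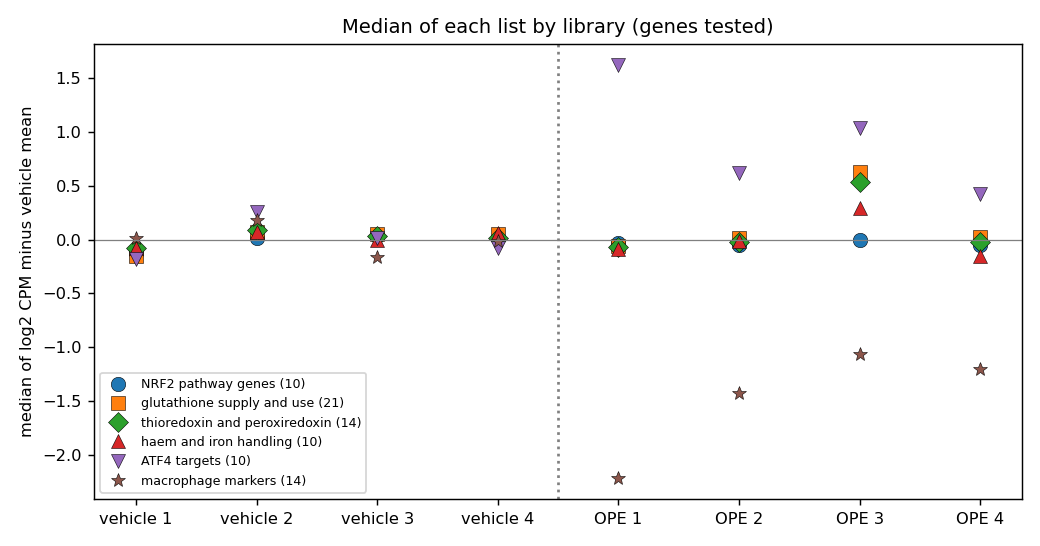
Median log2 CPM minus vehicle mean (y axis) of the 10 NRF2 genes and 5 other lists in each of the 8 libraries (x axis); numbers in brackets are genes tested. The median of the NRF2 genes stays between -0.12 and 0.04 in all libraries, while single members run from -0.91 (Nqo1, OPE 1) to 0.61 (Hmox1, OPE 3). The medians of the glutathione and thioredoxin groups reach 0.63 and 0.54 in OPE 3 alone.

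Among markers of other cell types in the limb, only those of macrophages and endothelium held genes that passed, all lower with OPE. Of all genes tested, 0.438% passed in that direction. Of 14 macrophage markers 14 were below 0, with a median of -1.31, and 7 passed, for example Csf1r (-2.50 ± 0.24, edgeR adjusted p = 0.00369). Of 10 endothelial markers 9 were below 0, with a median of -0.47, and 1 passed, Flt1 (-1.36 ± 0.25, edgeR adjusted p = 0.0452). Endothelial markers summed to 303.3 to 367.4 CPM with vehicle and 150.0 to 271.1 CPM with OPE. In tissue RNA, fewer cells of a type and less RNA per cell cannot be told apart. Of 8 surface ectoderm and 7 skeletal muscle markers 0 passed, with medians of -0.27 and 0.16. The part of these shifts in the values of the NRF2 genes was not tested.

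The genes most like each member over the 8 libraries were sought by the mean absolute difference of log2 CPM, each gene centred on its vehicle mean, among genes of at least 5 CPM. Tsc22d3 and Purg were nearest to Hmox1, at 0.03 for both, where the median gene differed by 0.21. Pbx3 was nearest to Gclm (0.04), Tdrd7 to Nfe2l2 (0.04), Ppp4r1 to Keap1 (0.02), Mapre2 to Gclc (0.04), Pcsk7 to Txnrd1 (0.02) and Anp32e to G6pdx (0.02). Hfe2 and Sox18 were nearest to Nqo1 (0.07 for both). The mitochondrial genes mt-Cytb and mt-Nd2 were nearest to Srxn1 (0.08 and 0.09), and Il4ra and Fap to Osgin1 (0.14 and 0.15). No member was among these nearest genes of another. Only the 2 nearest of all such genes were kept, and Osgin1 was below the limit of 5 CPM. The search therefore cannot show whether the members move together. Among the members themselves, Keap1 and Txnrd1 were the closest pair (0.08) and Hmox1 and Osgin1, the member with the fewest reads, the farthest apart (0.56). The farthest pair without Osgin1 was Hmox1 and Nqo1 (0.34).

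The authors' deposited table gave each member's log2 fold change the same sign as the edgeR fit. In the authors' deposited table the log2 fold change of Hmox1 was 0.27 with an adjusted p of 0.263, that of Gclm 0.19 (0.418), that of Osgin1 -0.35 (0.392), that of Nqo1 -0.22 (0.634) and that of G6pdx -0.17 (0.55). For Nfe2l2, Keap1, Gclc, Txnrd1 and Srxn1 the authors' deposited table gave adjusted p of 0.758 to 0.985. Its fold changes span only -1.73 to 1.47 over all genes, and it holds 476 genes at an adjusted p under 0.05, none of them among the 10.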

How the data were processed

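Per the labels' protocols, libraries were made from poly-A RNA with random hexamers. Build mm10, STAR 2.5, HTSeq 0.6.1, CASAVA 1.8 and DESeq2 (version given as 2) are named in the submitters' processing notes; the sources used here do not give the annotation, the strand setting or the role of each tool. Per the file headers the authors deposited raw read counts, FPKM values, log2 fold changes and p-values. The deposited signal values equal the counts over a size factor (0.803 to 1.25 by library), as checked on the values, and were not tested.

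All 8 libraries were used, 4 per group, by title. The test was edgeR's (4.0.16, under R 4.3.3; TMM, filterByExpr, robust quasi-likelihood fit, two-sided, group as the only term) over 15517 genes; limma 3.58.1 and DESeq2 1.42.0 served as alternatives. The SE is the log2 fold change over the square root of F, and log2 CPM values have a prior count of 2. FPKM served for levels between genes, for ratios and for a second look at group overlap. It is scaled to library totals without TMM, so its overlaps can differ from those in CPM. Libraries of a group all differed by more than counting noise, with a chi-square of 5.11 or more per degree of freedom in each pair. Counting precision follows from 14986793 to 22006738 reads per library.

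The 10 members and all lists were chosen with earlier results of these data known. Named beside the members were all genes of a list past the threshold, otherwise the 3 of smallest p, up to 3 passing markers per cell type, and the 2 most similar genes per member. On simulated counts for this comparison (15351 genes tested) 37.3% of genes changed 1.5-fold and 85.1% of those changed 2-fold were called, and 0 when nothing was changed. These counts were drawn gene by gene, without a library-wide shift such as that of OPE 3. The least abundant genes were left unchanged. The shares called may therefore be higher than the real libraries allow. Alternatives covered scaling, filters, tests, thresholds, gene length, the replicate number as a block and left-out libraries.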

Additional observations from a re-analysis of the deposited data

Results flagged for a closer look

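One value of the NRF2 genes stood far from the others of its group. Hmox1 in vehicle 1 was 46.9 CPM, while vehicle 2, 3 and 4 lay between 53.4 and 53.8 CPM; the gap was 0.941 of the range of the group, above Dixon's critical value for 4 samples. Of the 20 groups looked at (10 genes in 2 groups of libraries) it was the only one, and chance flags about 1 in 20. Without vehicle 1 the log2 fold change of Hmox1 was 0.26 (edgeR adjusted p = 0.556).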

How the results depend on the processing

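No NRF2 gene passed in any of the 21 alternative fits or at an adjusted p of 0.01 or 0.1. Of 210 values of the 10 genes, 200 kept their direction and stayed short of the threshold. The other 10 changed sign, all within 0.1 of 0: Nfe2l2 -0.0422, Gclc 0.0368 and Srxn1 0.0926 without both OPE 1 and OPE 3; Keap1 0.0134 and Gclc 0.0249 with the gene-length trend removed; and, with 1 library left out, 3 values of Gclc (range -0.0858 to 0.037) and 2 of Srxn1 (range -0.195 to 0.0473). The cause was not tested.

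The count of all genes past the threshold was 74. It was 131 with library totals, 136 without a filter, 112 with the newer quasi-likelihood method, 348 with the length trend removed (156 higher, 192 lower), 480 with DESeq2, 445 with limma-voom and sample weights, 7 at an adjusted p of 0.01, 243 at 0.1, and 7 to 308 with 1 library left out (308 without OPE 3). The count over the 7 antioxidant lists and the ATF4 targets was 0. It was 1 with DESeq2's size factors, upper quartile factors, limma-voom or the length trend removed, 2 with library totals, 3 without a filter, with the newer method or without both OPE 1 and OPE 3, 7 at an adjusted p of 0.1, 9 with DESeq2 and with sample weights, and 0 to 8 with 1 library left out. The called antioxidant genes were Slc3a2 (3 fits), Gpx3 and Aldh9a1 (1 each); all other calls were ATF4 targets.

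The labels do not say whether same-numbered libraries of the 2 groups share an origin. Their deviations correlated at 0.49, 0.08, 0.05 and 0.12, and vehicle 2 correlated best with OPE 3 (0.54). The deviations of OPE 3 carry its gene-length trend, so these values cannot settle whether the libraries were paired. With the replicate block, 62 genes and 0 NRF2 genes passed. Osgin1 had the fewest reads of the 10 genes, 14 to 43 per library, and the widest interval.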
